A study of Homo sapiens with 7 samples.

Results

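The nuclear genes for the subunits of respiratory complexes II, III, IV and V, with cytochrome c, were followed between 2 groups of human embryonic stem cell libraries. They were chosen by gene symbol alone: SDHA to SDHD, the UQCR symbols, CYC1, CYCS, the COX4 to COX8 symbols and the ATP5F1, ATP5M and ATP5P symbols. No measured value is part of this rule, though it was chosen with earlier results of these data known. It took 112 of 59251 rows of the count table, of which 49 were protein-coding (4 in complex II, 10 in complex III, 1 for cytochrome c, 16 in complex IV and 18 in complex V) and 63 were pseudogene rows (12 of complex III and 51 of complex V). All 112 matched a RefSeq symbol.

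Complex II oxidises succinate in the citric acid cycle and feeds electrons to ubiquinone. Complex III passes them to cytochrome c, and complex IV hands them to oxygen, while complexes III and IV pump protons across the inner mitochondrial membrane. Complex V, the ATP synthase, makes ATP as protons flow back through it, and its turning c-ring drives the catalytic F1 head. Complex II is built wholly from nuclear genes, whereas the core of the other complexes holds subunits encoded by mitochondrial DNA.

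All 7 libraries came from H9, an established human embryonic stem cell line, kept in the naive-state medium RSeT and transfected with guide RNA plasmids. The groups labelled CTRL (n = 4) and DJL1 (n = 3) differ in the plasmid name, but the labels do not say which effector acted with the guides, what the control plasmid carried or what DJL1 stands for. DZNep at 10 nM, which lowers histone methylation, and TSA at 5 nM, which blocks histone deacetylases, were in the medium of CTRL and DJL1 alike, with the CEPT survival cocktail for the first 16 h, and cells were harvested 48 h after transfection. Poly(A) RNA was sequenced. The labels name 1 cell line and no batch. Whether the replicates grew as separate cultures is not said, and the p-values then reflect only the scatter of these samples, which could be technical. Sorting is mentioned for the treated cells, yet the design text describes RNA made without it, and which applies is unclear.

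Library totals ran from 62277489 to 76691997 counts in CTRL and from 34634882 to 37795742 in DJL1, so the groups differ in depth. No pair of libraries agreed within sampling noise, and the biological coefficient of variation was 3.46% in CTRL and 13.8% in DJL1. Among 8 pluripotency markers POU5F1, the defining factor, was at 5248 to 5397 CPM (counts per 1000000, scaled between libraries) in CTRL and 5153 to 5660.4 in DJL1, while 7 of the 8 were lower in DJL1 and none higher; their summed level was 9546 to 9735 CPM in CTRL and 8228 to 9072 in DJL1. Of 7 tested fibroblast markers 6 were higher, with a summed level of 493 to 507 CPM in CTRL and 770.3 to 887 in DJL1. COL1A1 held much of that sum, with means of 241 CPM in CTRL and 484 in DJL1. POSTN went the other way and was not called, with means of 1.67 CPM in CTRL and 1.33 in DJL1. DCN, LUM and FAP had too few counts to be tested. Of 3 tested trophoblast markers all 3 were higher (5.94 to 8.41 CPM summed in CTRL, 18.2 to 21.1 in DJL1), and of 5 tested muscle markers 1 was higher (11.95 to 13.7 CPM in CTRL, 12.6 to 13.2 in DJL1). Over all tested genes 27.0% were higher in DJL1 and 25.1% lower, and 49.0% of those of at least 32 CPM were lower. In bulk samples fewer cells of a type and less RNA per cell cannot be told apart, and the part of these shifts in the results below was not tested.

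Transcripts of the 4 complexes and of cytochrome c were lower in the DJL1 libraries almost throughout. Of the 45 protein-coding members with enough counts to be tested, 42 were lower, 1 was higher (COX6B2) and 2 were not called (COX4I2 and COX7A1), by edgeR's quasi-likelihood test at an adjusted p under 0.05. Over all 26062 tested genes 52.0% were called, 25.1% lower and 27.0% higher. Change was thus common in these cells, and a call on its own says little. Well expressed genes also leaned downward: among 6619 tested genes that averaged 32 CPM or more, 49.0% were lower and 24.5% were higher. Of the subunit genes 39 reached that level, and all 39 were lower. The CPM ranges of the groups did not overlap in 38 of these 39, the exception being ATP5F1D, and 41 of the 45 tested members were lower without overlap. Over all tested genes 26.2% were lower without overlap.

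The summed level of the protein-coding members was 5532.6, 5603.8, 5291.6 and 5469.8 CPM in CTRL replicates 1 to 4 and 3871.3, 3814.6 and 4170.8 CPM in DJL1 replicates 1 to 3. The lowest CTRL library stood well above the highest DJL1 library. The mean dropped from 5474 ± 134 (SD, n = 4) to 3952 ± 191 (SD, n = 3), a ratio of 0.722, and the 45 tested members had a median log2 fold change of -0.51. Over all tested genes that median was 0.01, and over tested genes of at least 32 CPM it was -0.11 (quartiles -0.30 and 0.11). Each of the 39 well expressed subunit genes had a more negative log2 fold change than this second median. Within the groups the subunit genes varied little: the median coefficient of variation over the 39 was 3.02% in CTRL and 7.69% in DJL1.

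**Figure D1:**
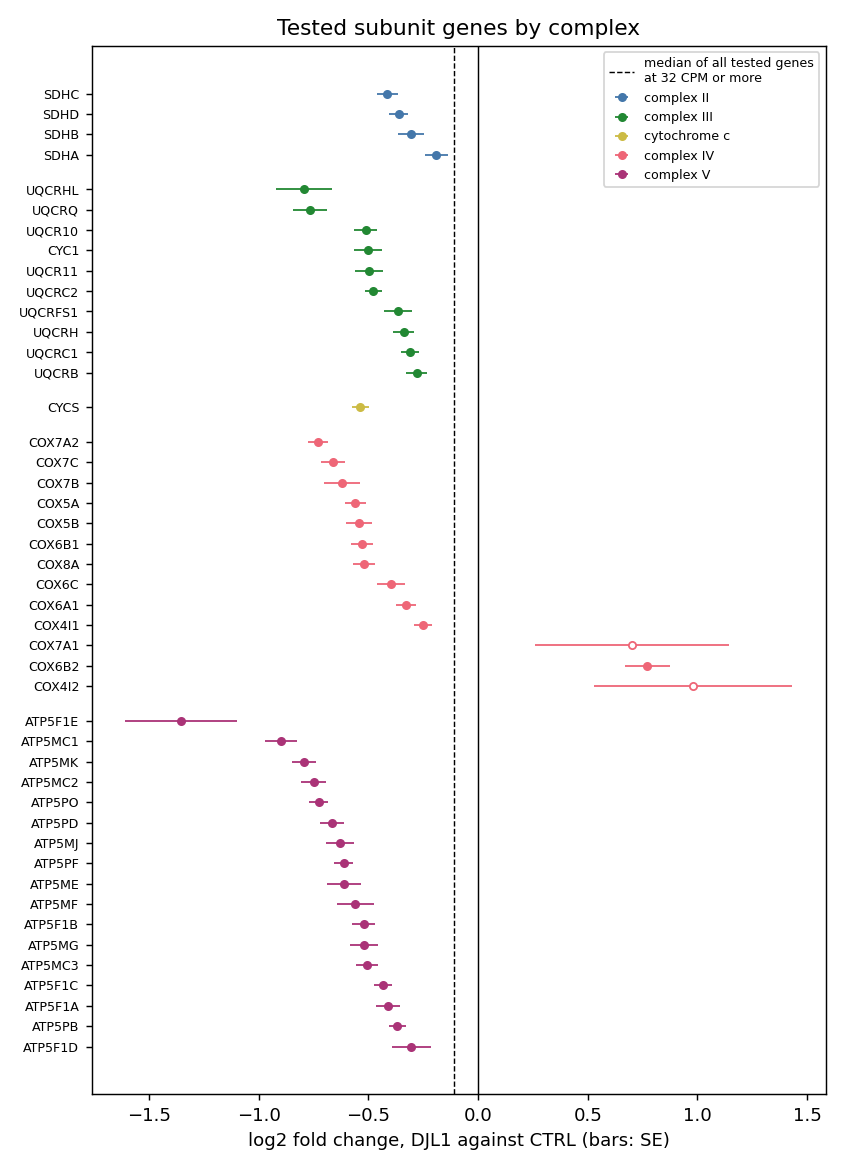
Log2 fold change of each tested protein-coding member in DJL1 against CTRL, grouped by complex; bars are standard errors, filled points passed the test and open points did not, and the dashed line is the median of all tested genes of at least 32 CPM (-0.11). The 42 lower members lie to the left of that line, and the 3 points right of 0 are COX7A1, COX6B2 and COX4I2.

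**Figure D2:**
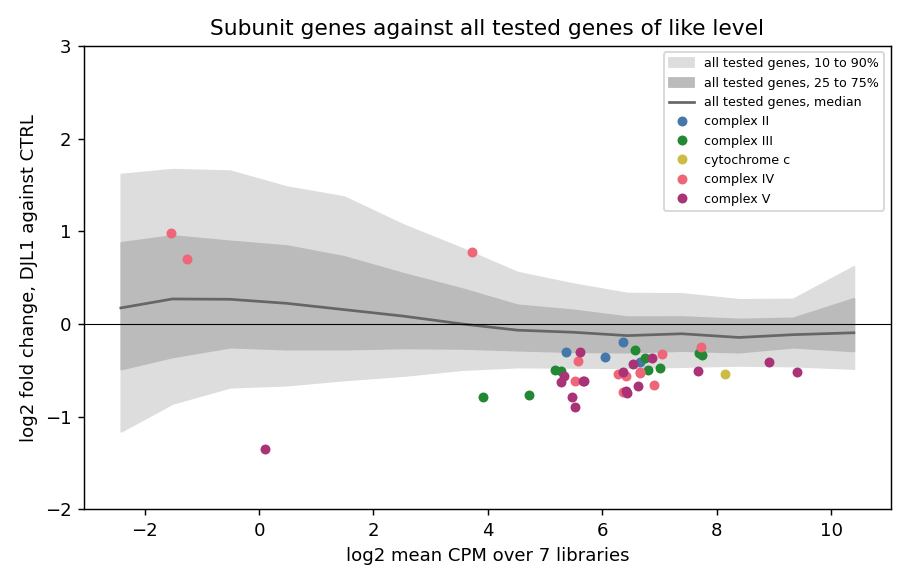
Log2 fold change of the tested subunit genes against their log2 mean CPM, over the median and the middle bands of all tested genes at each level (level bins of under 20 genes left out). Of the 45 points, 39 lie below the 25% quantile of genes of like level and 2 above the 75% quantile.

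Complex medians ranged from -0.33 to -0.61. Complex V had the most negative median log2 fold change, -0.61, with 17 of 17 tested genes lower, and its summed level dropped from 2586.8 ± 56.2 to 1802.7 ± 115.5 CPM, a ratio of 0.697. Complex II had the least negative, -0.33, with 4 of 4 lower, and its sum dropped from 318.4 ± 6.8 to 254.6 ± 17.1 CPM, a ratio of 0.80. Between them by median stood complex III (-0.49, 10 of 10 lower, ratio of sums 0.76) and complex IV (-0.52, 10 of 13 lower and 1 higher, ratio 0.73). So did CYCS, the only tested gene for cytochrome c (-0.54), though not by its ratio of 0.69. The complex IV median includes the minor forms COX4I2, COX7A1 and COX6B2, none of them lower. Their CTRL means were 0.242, 0.329 and 10.1 CPM. Read library by library, the median deviation of complex V genes from the CTRL mean was -0.61, -0.64 and -0.54 in DJL1 replicates 1 to 3 on the log2(CPM + 0.5) scale. For complex II the same deviation was -0.25, -0.44 and -0.31, so the values of the 2 complexes did not overlap in the DJL1 libraries. Those of complex III (-0.50, -0.50 and -0.35) overlapped those of complex IV (-0.53, -0.38 and -0.40). The difference between complexes was not tested, since the members of a complex are not replicates. The order of complexes III and IV depends on the processing: with the trend of transcript length removed their medians were -0.40 and -0.34.

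**Figure D3:**
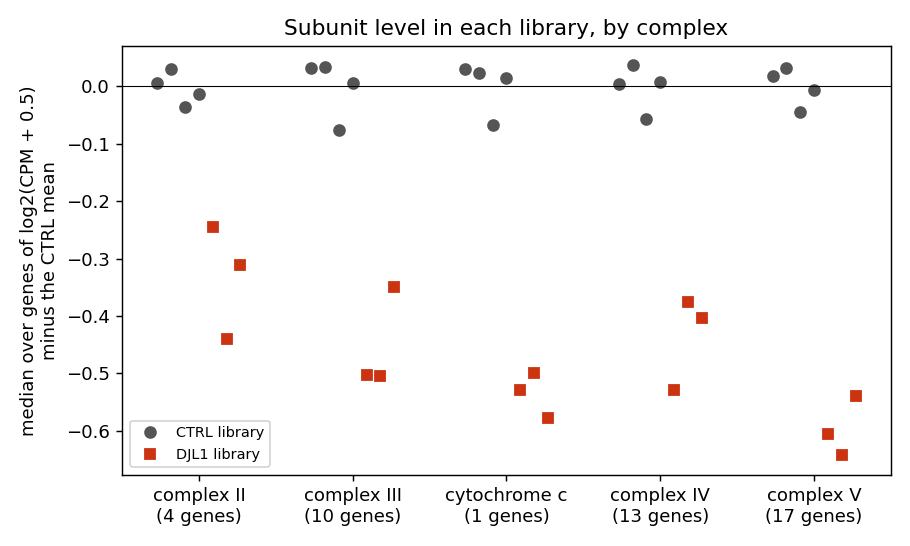
Median over the tested genes of each complex of log2(CPM + 0.5) minus the CTRL mean, 1 point per library. All CTRL points lie within 0.1 of 0 (in 5 of 5 gene sets), all DJL1 points lie below them, and the DJL1 points of complex V (-0.64 to -0.54) lie below those of complex II (-0.44 to -0.25).

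The promoters of several members are printed here because genes that move together are often read for shared motifs; they were picked as examples with a match, from each complex and cytochrome c. RefSeq entries for GRCh38.p14 gave a promoter for 37 of the 49 protein-coding members, and the 250 bases before the annotated start were searched on both strands. The searched motifs were the NRF1 core GCGCATGC (GCATGCGC on the other strand), the ETS core CCGGAAG, bound by GABP and read as CTTCCGG on the other strand, and the YY1 core GATGGCGG (CCGCCATC); none contains another. Shown are the stretches free of annotated exons, 5′ to 3′ on the gene's own strand, in lower case with motif matches in capitals. They lie at chr1:17054171-17054282 on the minus strand (SDHB), chr19:1605491-1605712 minus (UQCR11), chr7:25125362-25125510 minus (CYCS), chr2:97645812-97646039 plus (COX5B), chr12:120437863-120438089 plus (COX6A1) and chr17:75046986-75047219 minus (ATP5PD).
SDHB: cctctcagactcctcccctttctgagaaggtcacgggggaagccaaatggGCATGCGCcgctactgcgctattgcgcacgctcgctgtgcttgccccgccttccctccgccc
UQCR11: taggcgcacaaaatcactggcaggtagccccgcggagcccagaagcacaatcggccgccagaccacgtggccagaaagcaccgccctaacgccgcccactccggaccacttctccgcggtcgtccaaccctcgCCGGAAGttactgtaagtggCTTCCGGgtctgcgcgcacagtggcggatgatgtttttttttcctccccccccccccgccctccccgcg
CYCS: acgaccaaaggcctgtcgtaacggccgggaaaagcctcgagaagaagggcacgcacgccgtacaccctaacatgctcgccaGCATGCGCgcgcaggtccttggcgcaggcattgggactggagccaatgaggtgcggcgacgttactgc
COX5B: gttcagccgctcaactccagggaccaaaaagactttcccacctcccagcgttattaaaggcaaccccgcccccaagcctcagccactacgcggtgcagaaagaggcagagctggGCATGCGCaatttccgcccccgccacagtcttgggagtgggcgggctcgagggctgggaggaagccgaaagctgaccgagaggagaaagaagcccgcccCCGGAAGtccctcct
COX6A1: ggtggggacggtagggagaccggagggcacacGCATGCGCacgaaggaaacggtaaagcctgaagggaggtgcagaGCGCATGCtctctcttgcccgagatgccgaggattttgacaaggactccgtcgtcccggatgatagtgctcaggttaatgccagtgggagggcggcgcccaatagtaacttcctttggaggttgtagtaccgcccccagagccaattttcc
ATP5PD: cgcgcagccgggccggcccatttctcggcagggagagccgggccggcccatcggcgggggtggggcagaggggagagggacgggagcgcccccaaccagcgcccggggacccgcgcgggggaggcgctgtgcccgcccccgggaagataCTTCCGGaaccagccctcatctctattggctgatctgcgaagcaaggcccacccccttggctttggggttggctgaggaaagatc
The NRF1 core stands in the stretches of SDHB, CYCS and COX5B and at 2 places in that of COX6A1. The ETS core stands at 2 places, 1 on each strand, in that of UQCR11 and at 1 place each in those of COX5B and ATP5PD.

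Over the whole searched windows, 9 of 37 member promoters (24.3%) held the NRF1 core, against 2.81% of all 27305 promoters and 3.70% of those of 15843 protein-coding genes. The ETS core was found in 12 of 37 (32.4%), against 8.82% and 11.8%. The YY1 core was found in 1 (2.7%, in ATP5PF), against 1.07% and 1.18%. COX5B, ATP5PF, SDHB, SDHD and COX6A1 held both the NRF1 and the ETS core. Fold changes with and without these letters overlapped: the 16 lower members with any of the motifs had a median log2 fold change of -0.53 (range -0.79 to -0.30) and the 17 lower members with none had -0.52 (range -1.35 to -0.19). A match is a description of the letters and not a measured site.

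The 4 subunits of complex II are encoded by SDHA, the flavoprotein that holds the succinate site, SDHB, the iron-sulfur protein, and SDHC and SDHD, the membrane anchors. SDHC was at 117, 113, 109 and 113 CPM in CTRL and 89.7, 77.9 and 87.6 in DJL1 (log2 fold change -0.41 ± 0.05 SE, edgeR adjusted p = 4.33e-06). SDHD was at 73.9, 74.4, 72.2 and 72.8 CPM in CTRL and 59.0, 54.5 and 57.8 in DJL1 (-0.36 ± 0.04, adjusted p = 4.52e-06). The groups did not overlap for either anchor. SDHB, whose promoter carries the NRF1 core shown above, was at 43.7, 46.3, 45.7 and 44.5 CPM in CTRL and 39.7, 32.7 and 36.9 in DJL1 (-0.30 ± 0.06, adjusted p = 5.1e-04). SDHA was at 86.6, 92.3, 83.4 and 84.5 CPM in CTRL and 80.8, 70.7 and 76.4 in DJL1 (-0.19 ± 0.05, adjusted p = 0.00568). Every DJL1 library lay below every CTRL library for both, though for SDHA the gap was narrow.

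SDHA has close copies elsewhere in the genome, and its value is uncertain because the counting could split reads among them. The pseudogene rows SDHAP1 to SDHAP4 summed to 218 ± 9.37 CPM in CTRL and 215 ± 10.0 in DJL1, or 71.6% and 73.9% of all counts of the family, and SDHAP2, the largest, was not called (-0.01, adjusted p = 0.895). With the copies summed into SDHA, an alternative chosen after seeing the data, the log2 fold change was -0.07 and the edgeR adjusted p was 0.176. The way the counting treated reads that fit several places is not given in the sources used here. SDHD copies held 10.4% of their family in CTRL.

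In complex III, electrons pass through CYC1, cytochrome c1, and UQCRFS1, the Rieske iron-sulfur protein, and these catalytic genes had log2 fold changes of -0.50 and -0.36. CYC1 was at 124, 134, 125 and 124 CPM in CTRL and 89.0, 78.8 and 101 in DJL1 (SE 0.06, edgeR adjusted p = 9.98e-06). UQCRFS1, the member of this complex with the largest adjusted p, was at 118, 119, 119 and 119 CPM in CTRL and 84.1, 86.6 and 106 in DJL1 (SE 0.06, adjusted p = 1.68e-04). For both genes the groups did not overlap, and the third DJL1 library was the highest of its group. Copies of UQCRFS1 held 16.5% of its family's counts in CTRL, and the largest of them, UQCRFS1P1, was lower as well (-0.53).

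The core proteins UQCRC1 and UQCRC2 form the matrix-facing arms of the complex. UQCRC2 had the smallest adjusted p of complex III: it was at 147, 148, 141 and 147 CPM in CTRL and 105, 103 and 107 in DJL1 (-0.48 ± 0.04, edgeR adjusted p = 7.12e-08). UQCRC1 had a log2 fold change of -0.31. The small subunits ranged more widely, from UQCRB (-0.28), UQCRH (-0.34) and UQCR11 (-0.49) to UQCRQ and UQCRHL. UQCRQ, which helps to hold cytochrome b, was at 33.1, 33.8, 28.2 and 32.9 CPM in CTRL and 17.1, 18.7 and 20.6 in DJL1 (-0.77 ± 0.08, adjusted p = 6.89e-07). UQCR10 was at 46.0, 45.4, 42.0 and 44.0 CPM in CTRL and 29.5, 31.1 and 32.6 in DJL1 (-0.51 ± 0.05, adjusted p = 1.14e-06). The groups stood clear of each other for all of these. UQCRHL (-0.79) is a near-copy of UQCRH, so the split of reads between them is uncertain; UQCRH copies, UQCRHL among them, held 7.24% of the family in CTRL and 5.49% in DJL1.

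CYCS encodes the cytochrome c of somatic cells, which shuttles electrons between complexes III and IV and, once released from mitochondria, triggers caspases. It was at 334, 333, 312 and 330.4 CPM in CTRL and 227, 231 and 219 in DJL1, and thus among the more abundant members by counts. The libraries within each group lay close together and the groups far apart. The log2 fold change was -0.54 ± 0.04, or -31.0% (edgeR adjusted p = 3e-08). Pseudogene rows of CYCS held 11.9% of the family's counts in CTRL and 13.6% in DJL1, and the largest, CYCSP55, was lower too (-0.43, adjusted p = 4.46e-05).

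Complex IV has catalytic subunits made from mitochondrial DNA and a shell of nuclear subunits, several of which come as ubiquitous and tissue-specific isoforms. COX7A2, the ubiquitous form of the isoform pair COX7A, had the smallest adjusted p of all members: it was at 103, 100.1, 95.9 and 97.1 CPM in CTRL and 57.6, 62.0 and 59.4 in DJL1 (-0.73 ± 0.04, edgeR adjusted p = 3.74e-09). COX7C, a small membrane subunit, was at 140.2, 152, 133 and 142 CPM in CTRL and 84.7, 86.5 and 97.7 in DJL1 (-0.66 ± 0.06, adjusted p = 1.06e-07). COX5A, which faces the matrix, was at 99.2, 100.4, 92.5 and 102 CPM in CTRL and 68.1, 62.8 and 69.6 in DJL1 (-0.56 ± 0.05, adjusted p = 1.57e-07). In all 3 cases no DJL1 library came near the CTRL range. COX5B had a log2 fold change of -0.54 and COX6C of -0.40.

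The COX6B pair of complex IV changed in opposite directions. COX6B1, the ubiquitous subunit on the side that meets cytochrome c, was at 119.6, 119, 112 and 114 CPM in CTRL and 74.1, 81.1 and 86.2 in DJL1 (-0.53 ± 0.05, edgeR adjusted p = 3.9e-07). Its paralogue COX6B2, known as the testis form (chr19:55349704-55354719, GRCh38.p14), was at 10.0, 10.6, 9.89 and 10.0 CPM in CTRL and 15.2, 21.2 and 15.6 in DJL1. COX6B2 was the only tested member called higher: all 3 DJL1 libraries lay above the CTRL range, and the log2 fold change was 0.77 ± 0.10 (adjusted p = 1.13e-05). Per kilobase of transcript, using the median length of the GENCODE 29 transcripts of each gene, COX6B2 made up 2.89% ± 0.08 of the pair in CTRL and 6.85% ± 1.20 in DJL1. The ubiquitous form still held most of the pair's level in every library.

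COX4I1, the main form of the subunit through which ATP regulates the oxidase, was at 229.5, 232, 218 and 229 CPM in CTRL and 182, 191 and 199.8 in DJL1, the smallest change among the called complex IV genes (-0.25 ± 0.04, edgeR adjusted p = 1.17e-04). COX4I2, the form linked to lung and to low oxygen, was at 0.193, 0.342, 0.161 and 0.273 CPM in CTRL and 0.418, 0.685 and 0.351 in DJL1. These values rest on 10 to 26 counts a library, and although the groups did not overlap the difference was not called (0.98 ± 0.45, adjusted p = 0.0823). COX7A1, the heart and muscle form, was at 0.305, 0.276, 0.418 and 0.318 CPM in CTRL and 0.652, 0.742 and 0.216 in DJL1, with the third DJL1 library below all of CTRL (0.70 ± 0.44, adjusted p = 0.201). Without that library COX7A1 was called (1.07, adjusted p = 0.027), so 1 library decides it.

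COX6A1 was at 146, 149.8, 143 and 142 CPM in CTRL and 108, 116 and 123 in DJL1 (-0.33 ± 0.05, edgeR adjusted p = 2.1e-05), while its muscle form COX6A2 had 7, 2, 1 and 2 counts in CTRL and 9, 6 and 0 in DJL1 and was not tested. The copy COX6A1P2 took 20.8% of the COX6A1 family in CTRL and was lower as well (-0.27, adjusted p = 0.00172). COX7B was at 55.9, 54.8, 51.3 and 54.3 CPM in CTRL and 29.8, 41.6 and 34.4 in DJL1 (-0.62 ± 0.08, adjusted p = 1.06e-05). Its testis form COX7B2 had 1, 2, 0 and 0 counts in CTRL and none in DJL1. COX8A was at 116, 119, 113 and 117 CPM in CTRL and 79.1, 75.4 and 88.3 in DJL1 (-0.52 ± 0.05, adjusted p = 5.15e-07). COX8C, another testis form, had 0, 0, 2 and 2 counts in CTRL and 14, 4 and 18 in the shallower DJL1 libraries. These counts were higher in every DJL1 library but too low to enter the test. With no filter on low counts COX8C was called higher (fitted log2 fold change 4.18, adjusted p = 1.67e-04), a value that rests on 4 counts in the whole CTRL group. In 3 pairs, COX6B, COX4I and COX8, the groups did not overlap for either gene, the ubiquitous form being lower and the minor form higher in DJL1. The minor form passed the test in COX6B alone, and in the COX6A, COX7A and COX7B pairs it overlapped between the groups. Rare genes leaned upward in general: tested genes of COX4I2's level had a median log2 fold change of 0.27 and a 75% quantile of 0.95. The share of all tested genes that were higher without overlap was not computed, so no pattern over the pairs is read from these ranges.

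**Figure D4:**
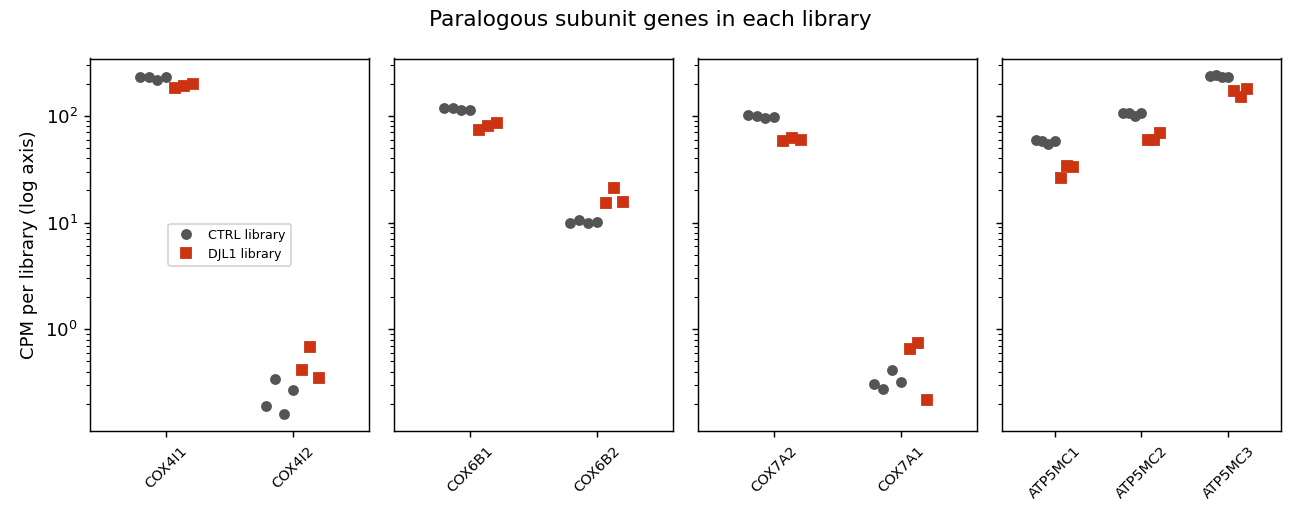
CPM in each library, on a log axis, for paralogous members of complex IV (COX4I1 and COX4I2, COX6B1 and COX6B2, COX7A2 and COX7A1) and the 3 c-ring genes of complex V. COX6B2 lies higher in all 3 DJL1 libraries while COX6B1 lies lower, and the 3 c-ring genes are all lower.

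The ATP synthase subunits held the 3 most negative log2 fold changes among members of at least 32 CPM. Its rotating c-ring is made of 1 mature protein encoded by 3 genes that differ in their import signals. ATP5MC1 was at 59.1, 58.6, 54.9 and 57.8 CPM in CTRL and 25.9, 33.7 and 33.2 in DJL1 (-0.90 ± 0.07, edgeR adjusted p = 8.34e-08), a drop of 46.4%. ATP5MC2 was at 107, 106, 99.7 and 106 CPM in CTRL and 58.9, 58.9 and 69.2 in DJL1 (-0.75 ± 0.06, adjusted p = 3.32e-08). ATP5MC3 was at 236, 239, 229.9 and 233 CPM in CTRL and 169, 149 and 177 in DJL1 (-0.51 ± 0.05, adjusted p = 6.89e-07). The groups were apart for all 3 genes. ATP5MC3 was the leading source by counts and, per kilobase, made up 54.2% ± 0.51 of the trio in CTRL and 59.4% ± 2.90 in DJL1, with all 3 DJL1 libraries (56.8% to 62.5%) above the CTRL range (53.7% to 54.8%). The share of ATP5MC1 was 20.8% ± 0.21 in CTRL and 17.4% ± 2.54 in DJL1, and that of ATP5MC2 was 25.1% ± 0.30 and 23.2% ± 0.65. The sum of the trio dropped from 396.9 ± 8.8 to 258.5 ± 19.3 CPM, a ratio of 0.651.

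The peripheral stalk keeps the F1 head from turning with the ring. ATP5PO, the stalk subunit that confers sensitivity to oligomycin, was at 105, 104, 98.8 and 102 CPM in CTRL and 59.1, 63.9 and 63.3 in DJL1 (-0.73 ± 0.04, edgeR adjusted p = 4.19e-09). ATP5PF, coupling factor 6, was at 60.5, 61.4, 57.9 and 59.1 CPM in CTRL and 39.3, 39.8 and 38.0 in DJL1 (-0.61 ± 0.05, adjusted p = 3.05e-08). Neither gene showed any overlap, and each group was tight. The other stalk genes were ATP5PD (-0.67) and ATP5PB (-0.37), and the summed level of the stalk had a ratio of 0.673. Among the small membrane subunits, ATP5MK, which stabilises dimers of the enzyme, was at 55.1, 57.4, 50.1 and 53.2 CPM in CTRL and 30.5, 32.2 and 30.9 in DJL1 (-0.79 ± 0.05, adjusted p = 1.57e-08). The others of that set were ATP5MJ (-0.63), ATP5ME (-0.61), ATP5MF (-0.56) and ATP5MG (-0.52), and ATP5MGL, with at most 1 count a library, was not tested.

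The F1 head, where ATP is made, includes the 2 most abundant members by counts, and its median log2 fold change, -0.43, was the least negative of the 4 sections of complex V. ATP5F1B, the catalytic beta subunit, dropped from 779 ± 11.8 to 543 ± 48.9 CPM (-0.52), ATP5F1A, the alpha subunit, from 543 ± 7.53 to 408 ± 40.3 CPM (-0.41), and ATP5F1C, the gamma shaft, by 0.43 on the log2 scale. ATP5F1D, the delta subunit, was at 54.1, 54.0, 52.9 and 51.8 CPM in CTRL and 37.2, 39.4 and 52.6 in DJL1. The third DJL1 library lay inside the CTRL range, and it had the largest adjusted p of complex V (-0.30 ± 0.09, edgeR adjusted p = 0.0101); without DJL1 replicate 2 it was not called (-0.26, adjusted p = 0.0705). ATP5F1E, the epsilon subunit, had the most negative log2 fold change of all members (-1.35 ± 0.25, adjusted p = 3.39e-04) but only 85, 127, 93 and 85 counts in CTRL and 28, 15 and 20 in DJL1. Its locus overlaps TUBB1 and the read-through gene SLMO2-ATP5E, which is listed at 0 in every library, and the part of this overlap in the low count was not tested.

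The 63 pseudogene members carried few counts. Of these 12 were tested, 3 were lower (UQCRFS1P1, UQCRBP1 and ATP5MC2P4) and none was higher by edgeR at an adjusted p under 0.05, also none at an unadjusted p under 0.05. That count is close to the 25.1% of all tested genes that were lower, so it shows nothing particular to these rows. Their median log2 fold change was -0.26. Their level summed to 40.0 ± 1.6 CPM in CTRL and 29.7 ± 3.2 in DJL1, and such reads cannot be told from misassigned reads of the parent gene.

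Subunits made in the mitochondrion itself could not be set beside these. The table lists CYTB of complex III, COX1, COX2 and COX3 of complex IV and ATP6 and ATP8 of complex V, but all 37 genes of the mitochondrial chromosome are listed at 0 in all 7 libraries. Another 3 nuclear genes, outside the symbol patterns, are related to these complexes or to cytochrome c. NDUFA4, now counted as a complex IV subunit, was lower by 0.69 on the log2 scale (151.9 ± 5.44 to 94.2 ± 9.16 CPM, edgeR adjusted p = 7.6e-08). COX7A2L, which links complexes III and IV into supercomplexes, fell by 0.18. HCCS, an enzyme that attaches heme to cytochrome c and not a subunit, fell by 0.25.

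Assembly factors were mostly lower too. For complex II, 3 of 4 were lower, SDHAF2, which inserts flavin into SDHA, by the smallest adjusted p (-0.44). For complex III, 4 of 6 were lower and 1 higher, with BCS1L, which inserts the Rieske protein, at -0.70 (55.7 ± 1.42 to 34.4 ± 0.83 CPM, edgeR adjusted p = 1.1e-08) and UQCC1 at 0.26. For complex IV, 24 of 30 were lower and 1 higher, led by HIGD1A (-0.56), SLIRP (-0.65), COA4 (-0.68) and COX20 (-0.58), and the median was -0.38. For complex V the pattern was divided: 3 of 8 were lower, among them OXA1L, the membrane insertase (-0.43), and 2 were higher, TMEM70 (0.36) and TMEM242 (0.29), both of which act in building the c-ring. ATP5IF1, the inhibitor of the enzyme, was at 103 ± 3.82 CPM in CTRL and 104 ± 7.49 in DJL1 and was not called (0.02 ± 0.05, adjusted p = 0.715). These shares stand beside the 25.1% of all tested genes, and the 49.0% of those of at least 32 CPM, that were lower.

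Regulators of nuclear respiratory genes, listed together with factors that copy, bind or transcribe mitochondrial DNA, were mixed. Of 22 tested, 10 were lower and 4 higher, with a median log2 fold change of -0.11. Tested genes of at least 32 CPM had near shares, 49.0% lower and 24.5% higher, with the same median. Over all tested genes 25.1% were lower and 27.0% higher. Some of the 22, such as NRF1 and PPARGC1A, lay below 32 CPM, so neither background matches the list. Nothing particular to the list is read from these counts. NRF1, which binds the core printed above, was at 21.7 to 21.8 CPM in CTRL and 20.1 to 22.0 in DJL1 (-0.06 ± 0.06, edgeR adjusted p = 0.383). PPARGC1A, the coactivator PGC-1 alpha, was at 8.28 to 9.52 CPM in CTRL and 9.41 to 11.7 in DJL1 and missed the threshold (0.23 ± 0.09, adjusted p = 0.0505). HIF1A, the oxygen-sensing factor, was not called (0.03 ± 0.04, adjusted p = 0.565). For these 3 genes the groups overlapped. TFAM, which packages and transcribes mitochondrial DNA, was lower (-0.26 ± 0.04, adjusted p = 3.63e-05), as were POLG (-0.47), POLG2 (-0.54) and SSBP1 (-0.50), which copy it or bind its single strands. YY1 was higher, at 116 to 125 CPM in CTRL and 169 to 173 in DJL1 (0.51 ± 0.04, adjusted p = 5.42e-08). The GABP genes were chosen for mention after their values were seen. GABPA (0.02 ± 0.05, adjusted p = 0.793) and GABPB2 (-0.17 ± 0.11, adjusted p = 0.226) were not called. GABPB1 was higher (0.48 ± 0.06, adjusted p = 3.16e-06).

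Of 5 genes tied to the switch of respiration under low oxygen, 2 were higher, MXI1 (1.28) and NDUFA4L2 (0.64), and 2 were lower, PDK1 (-0.57) and HIGD1A (-0.56), which is also one of the assembly factors above. With 52.0% of all tested genes called, 27.0% higher and 25.1% lower, these counts say little. Of 16 genes of the citric acid cycle, which supplies the electrons, and of pyruvate dehydrogenase (PDHA1, PDHB and DLAT), 12 were lower and 1 higher. Their median log2 fold change was -0.32, where 49.0% of tested genes of at least 32 CPM were lower. FH, DLD, PDHB and SUCLG1 were lower by 0.50, 0.45, 0.41 and 0.38 on the log2 scale, in that order. SUCLA2, a subunit of succinyl-CoA synthetase, was chosen for mention after its values were seen as the gene that rose (0.17).

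Short transcripts were lower in general, and most subunit transcripts are short. Of the 467 protein-coding genes of at least 32 CPM with a transcript under 1000 nt, 63.4% were lower. The median log2 fold change of protein-coding genes at this level was -0.39 up to 500 nt (23 genes), -0.21 from 500 to 1000 nt, -0.14 from 1000 to 2000 nt, -0.10 from 2000 to 4000 nt and -0.06 above. The subunit genes in the same length classes had medians of -0.59 (4 genes), -0.53 (25 genes), -0.43 (7 genes) and -0.36 (3 genes), more negative than the class median each time. Across the 39 genes, which are not independent and share libraries, the log2 fold change went with transcript length (Spearman's rho 0.42, Pearson's r 0.43 on log2 length, given as a description). With the length trend of all genes removed the medians were -0.23 for complex II, -0.40 for III, -0.45 for cytochrome c, -0.34 for IV and -0.46 for V, and 41 members were lower; ATP5F1D was not called (-0.18, adjusted p = 0.0901). The part of RNA quality or library size selection in this trend was not tested.

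**Figure D5:**
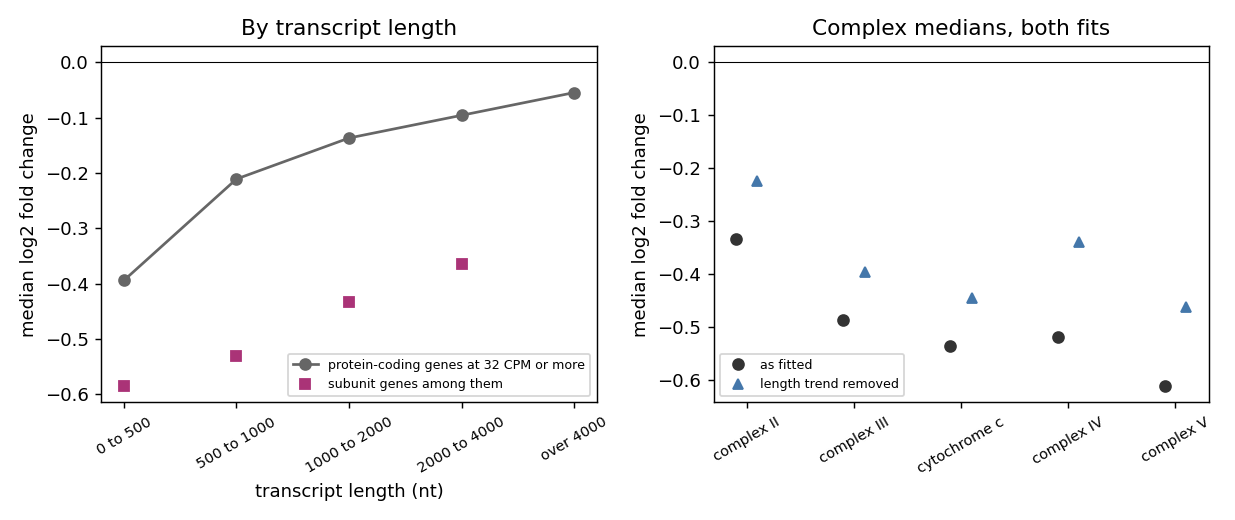
Left, median log2 fold change of protein-coding genes of at least 32 CPM by transcript length in nt, with the subunit genes among them. Right, median log2 fold change of each complex as fitted and with the length trend removed; all 5 medians lie closer to 0 after removal (-0.23 to -0.46) and all stay below it.

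The authors' deposited table of the same comparison lists 43 of the protein-coding members, 42 of them lower and 1 higher at its adjusted p under 0.05, with a median log2 fold change of -0.50. The sign was the same as in the edgeR fit for 43 of 43, and the largest difference between the fits was 0.019 on the log2 scale. Both come from the same libraries.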

How the data were processed

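RNA of 7 libraries, CTRL (n = 4) and DJL1 (n = 3), grouped by sample title, was analysed from a table of raw counts per gene that the authors deposited. Tools listed in the submitters' processing notes are HISAT2 2.2.1, Trim Galore 0.4.0, Subread 1.5.0 and featureCounts, with GRCh38 and hg38; how strand and multi-mapping reads were handled is not stated there. A deposited table of log values with no named base was not used. The authors' deposited table of the comparison gives log2 fold changes, p-values and adjusted p-values per the file headers, and scores (t and log odds) that were not used.

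Rows with at least 10 counts in enough libraries and 15 in total (filterByExpr) were kept, 26062 of 59251 rows holding over 99.9% of counts. After TMM scaling, groups were compared with edgeR 4.0.16 (R 4.3.3, quasi-likelihood, robust, 2-sided, Benjamini-Hochberg over all tested genes). CPM are per 1000000 scaled counts, with the SE taken from the fold change and F statistic. Transcript lengths are medians over GENCODE 29 basic transcripts, and positions and promoters are RefSeq GRCh38.p14. The procedure was tested on simulated data with 200 changed genes and the same spread in CTRL and DJL1. Far more genes changed in the real data and the spread differed between the groups, so that test does not cover these conditions. Alternatives were other scalings and filters, DESeq2 1.42.0, limma 3.58.1 voom, thinning, the length trend, each library left out and a replicate block, with pseudogene summing added after seeing the data.

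The members and lists were chosen with earlier results of these data known. SUCLA2 and the GABP genes were named outside the rules below, after their values were seen. Values in every library are given for complex II, CYC1, CYCS, paralogue sets, and in complexes III to V the 3 genes with the smallest and the 1 with the largest adjusted p; from other lists up to 4 genes by adjusted p and preset regulators are named.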

Additional observations from a re-analysis of the deposited data

Results flagged for a closer look

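In 4 of the 45 tested protein-coding members 1 CTRL library stood far from the other 3 by Dixon's criterion, which by chance takes about 1 in 20 groups. UQCRQ was at 28.2 CPM in CTRL replicate 3, with the others at 32.9 to 33.8, and ATP5MJ at 42.3 CPM in the same library, with the others at 46.5 to 46.7. CYC1 was at 134 CPM in CTRL replicate 2 against 124 to 125, and ATP5F1C at 106 CPM in CTRL replicate 4 against 103 to 104. All 4 genes stayed lower in DJL1 with each CTRL library left out in turn.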

How the results depend on the processing

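Between 40 and 42 of the members were lower under every alternative run, and all medians stayed below 0. The count of lower members was 41 at an adjusted p under 0.01 and with the length trend removed, and 40 with pseudogene rows summed into the parents, where UQCRHL is merged and SDHA lost its call. The count of higher members, 1 as reported, was 2 with no filter on low counts (COX8C added) and 2 with the length trend removed (COX4I2 added, 1.11, adjusted p = 0.0499). Removing the length trend gave medians of -0.225 for complex II, -0.396 for III, -0.445 for cytochrome c, -0.339 for IV and -0.462 for V. Leaving out each library in turn gave 41 to 42 lower and 1 to 3 higher members (2 without DJL1 replicate 2, COX8C added, and 3 without DJL1 replicate 3, COX7A1 and COX6A2 added), and medians of -0.388 to -0.293 for complex II, -0.529 to -0.452 for III, -0.566 to -0.524 for cytochrome c, -0.593 to -0.475 for IV and -0.628 to -0.565 for V. COX8C and COX6A2 passed the filter in those fits only through their counts in the DJL1 libraries kept, so their calls there are no support for a rise. Apart from those of ATP5F1D, SDHA, COX4I2 and COX7A1, no call on a gene tested in the fit reported changed (847 of 852 values kept side and direction, none reversed). The cause was not tested.

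Groups share replicate numbers 1 to 3, but same-numbered libraries did not deviate together (r of 0.015, -0.104 and -0.11). CTRL replicate 2 and DJL1 replicate 3, which differ in number, had an r of like size (0.117). These values show no pairing by number, but with so few libraries they cannot exclude it. With the replicate block 42 members were lower and 1 higher, with a median log2 fold change of -0.517 over the members and -0.34, -0.474, -0.531, -0.517 and -0.615 for complexes II, III, cytochrome c, IV and V.

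Depth limits the isoforms COX6A2, COX7B2, COX8C and ATP5MGL, which were too rare to test.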
